A study of Mus musculus with 6 samples.

Results

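NEU_22 was the neuronal cluster of a single-cell RNA-seq study of mouse striatal astrocytes, and it held 53 of 14373 annotated cells. Its members are the cells that the authors assigned to NEU_22 in their clustering, matched to the UMI counts (a UMI is a molecular tag, so that amplified copies of 1 captured transcript are counted as 1) by cell name. All 53 came from postnatal day 3 (P3), with 14 cells in P3 replicate 1, 23 in replicate 2 and 16 in replicate 3. These were 0.557% (Wilson 95% interval 0.332 to 0.932) of 2515 cells, 0.633% (0.422 to 0.948) of 3634 cells and 0.318% (0.196 to 0.515) of 5039 cells. None of the 3185 annotated cells at 3 months (3m) was in the cluster, which allows a share of up to 0.0942% there.

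Wild-type male C57BL/6 mice were used at both ages. The striatum was dissociated and cells bound by ACSA2 beads were kept, with 3 libraries per age made by a 10x 3′ protocol. ACSA2 is an epitope of the β2 subunit of the Na,K-ATPase, encoded by *Atp1b2*, and the procedure is meant to retain astrocytes. Per the study's methods, the dissection left out the subventricular zone and a preparation pooled several animals, so a library is not an individual, and p-values over libraries measure the spread between preparations. P3 libraries held 32193875 to 37795021 UMIs. Of the P3 barcode sequences, 19 occurred in more than 1 P3 library, and 0 of the 53 NEU_22 barcodes occurred in another library.

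Neurons carry a cytoskeleton of neuron-specific tubulin and, as axons mature, of neurofilaments, and they release transmitter from synaptic vesicles. At birth the striatum contains young projection neurons of the lateral ganglionic eminence and interneurons that migrate in from other subpallial zones. Neuroblasts leave the adjoining subventricular zone for the olfactory bulb. The transcription factors *Meis2*, *Bcl11b*, *Sp9* and the *Dlx* genes mark these subpallial lineages. Purkinje cells are the large GABAergic output neurons of the cerebellar cortex, and *Pcp2* is one of their most selective markers.

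*Pcp2* (8:3623371 to 3625545 in GRCm38, minus strand, GENCODE M21) divided NEU_22 without intermediates. The gene had 33 to 158 UMIs in 6 cells and 0 UMIs in the other 47. All 6 *Pcp2*-positive cells were in P3 replicate 2, where they stood beside 17 *Pcp2*-negative cells. Replicates 1 and 3 held no barcode with a *Pcp2* UMI in any cell type. In replicate 2, 2 of 2644 astroglial cells and 1 of 137 barcodes rejected by the authors' filter carried 1 to 2 *Pcp2* UMIs. Because the class is present in 1 library, class and library cannot be told apart over replicates, and comparisons between the classes are values within replicate 2 with no replicate check.

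The region before the start of *Pcp2* is shown because this gene defines the split. RefSeq (GRCm38.p6) lists 4 starts for the gene, and the 250 bases before the most upstream one are at chr8:3625548-3625797, minus strand, printed 5′ to 3′. Capitals mark AGGTCA, the core sequence bound by nuclear receptors such as the one encoded by *Rora*, searched on both strands.
Pcp2: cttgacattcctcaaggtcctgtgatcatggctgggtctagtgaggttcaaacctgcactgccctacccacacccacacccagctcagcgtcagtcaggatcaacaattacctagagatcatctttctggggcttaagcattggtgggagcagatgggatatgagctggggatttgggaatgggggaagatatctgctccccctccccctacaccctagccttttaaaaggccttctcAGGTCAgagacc
These letters occurred 1 time, beginning 12 bases before the start, and they occur in 14% of the 32851 windows of this length in the table. *Rora* itself, which encodes a nuclear receptor required for Purkinje cell maturation, had 120 of its 124 NEU_22 UMIs in the *Pcp2*-positive cells. The match is a description of letters and shows no binding.

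The *Pcp2*-positive cells were deep for the cluster. Their totals ran from 13823 to 44750 UMIs and from 3544 to 6909 genes, against 1002 to 11207 UMIs in the 17 *Pcp2*-negative cells of the same library, with no overlap in UMIs. In replicate 1, 2 *Pcp2*-negative cells reached 13948 and 15592 UMIs, above the shallowest of the 6. The *Pcp2*-positive cells made up 11.3% of the cells and 50.5% of the cluster's 350845 UMIs, so sums over NEU_22 weigh them as heavily as the other 47 cells together. Their mitochondrial share was 2.66 to 8.98%.

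Genes of the Purkinje cell list were found with *Pcp2* in the same 6 cells. Leaving *Pcp2* out, the other 20 list genes took 2.35 to 3.92% of UMIs in the 6 cells and at most 0.712% in any of the other 47. Each of the 6 cells had UMIs of 11 to 15 of these 20 genes, whereas the *Pcp2*-negative cells had 0 to 6. In the plot of Purkinje list genes against depth, the 6 cells form a separate cloud.

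**Figure D1:**
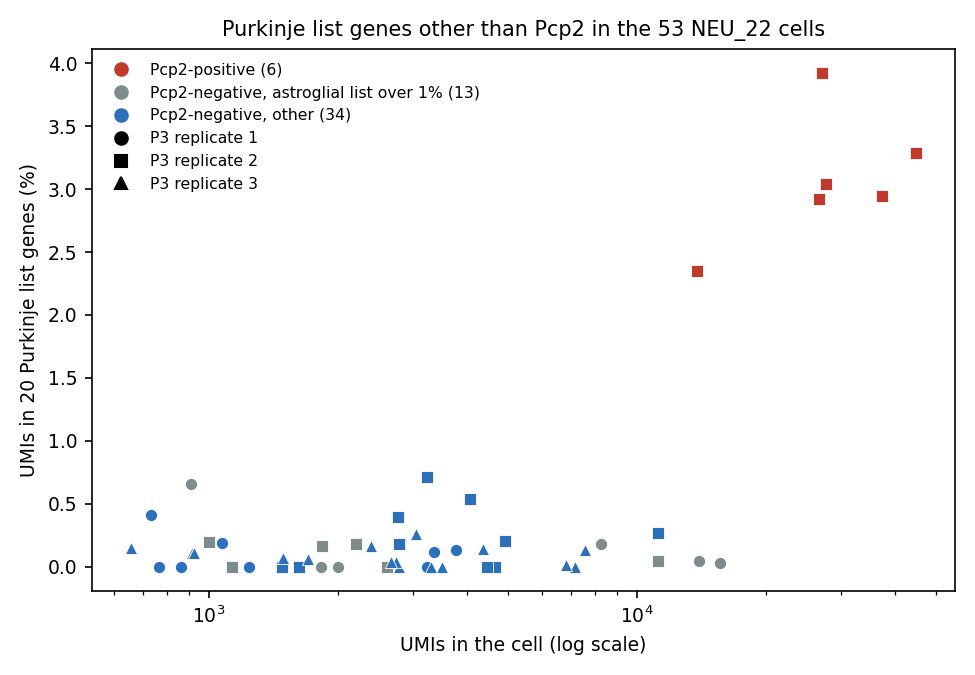
Share of UMIs in the 20 Purkinje list genes other than Pcp2 (y axis, %) against total UMIs (x axis, log scale) for each of the 53 NEU_22 cells, coloured by class and shaped by library. The 6 Pcp2-positive cells lie between 2.35 and 3.92%, all in replicate 2 and all at 13823 UMIs or more, and every other cell lies at or below 0.712%.

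Of the list genes, *Calb1*, the calcium buffer calbindin, had 208, 192, 104, 138, 102 and 43 UMIs in the 6 cells (787 in all) and 0 in the 17 *Pcp2*-negative cells of the library, which puts it at least 94.6-fold higher on a floor of 3 UMIs over the group. *Car8*, an inhibitor of IP3 binding to its receptor, had 1384 UMIs in the 6 cells (7806 CPM, UMIs scaled to a common total of 1e+06 per sum) and 5 UMIs in the 17 (78.2 CPM), a ratio of 99.9 with a counting interval of 42.7 to 308. It is not confined to neurons, since P3 astroglial cells had 293 CPM, and the *Pcp2*-negative UMIs were all in cells with astroglial transcripts, described below. *Itpr1*, the IP3 receptor that Car8 binds, had 113 UMIs in the 6 cells and 0 in the 17, at least 13.6-fold higher. *Pcp4*, a regulator of calmodulin, was less exclusive, with 14575 CPM in the 6 cells and 1454 CPM in the 17 cells, a ratio of 10.0 (8.15 to 12.5).

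Transcription factors of the list were split. *Ebf1* and *Ebf2*, helix-loop-helix factors of Purkinje subsets, had 336 and 53 UMIs in the 6 cells and 0 in all 47 others, and *Lhx1* had 40 UMIs in the 6 cells and 4 in a single other cell. *Foxp2* was found in both classes, with 316 CPM in the 6 cells and 266 CPM in the 17 cells (ratio 1.19, interval 0.68 to 2.18). Several defining Purkinje genes were absent or nearly so: *Ppp1r17*, *Lhx5* and *En1* had 0 UMIs among the 177294 UMIs of the 6 cells, *En2* had 1 and *Skor2* had 2. A count of 0 there allows up to 16.9 CPM. The cerebellar granule cell list was represented by 7 *Cbln1* UMIs, and the other 8 of its 9 genes were at 0 in the 6 cells. Pan-neuronal markers were detected across the cluster, as given below, and the 6 cells carried a Purkinje set with these gaps, in a preparation labelled as striatum. Where they came from was not tested.

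The neurofilament chain genes *Nefl* and *Nefm* belonged almost entirely to the same 6 cells. *Nefl* (14:68083863 to 68089095, plus strand), the light neurofilament chain, had 68, 39, 35, 47, 45 and 14 UMIs in the 6 *Pcp2*-positive cells and 0 UMIs in the other 47. *Nefm* (14:68082590 to 68124846, minus strand), the medium chain whose annotated span overlaps that of *Nefl* on the opposite strand, had 221 of its 222 UMIs there. The 1 remaining *Nefm* UMI was in a cell of replicate 3. Thus both of these cluster markers were absent from replicate 1, *Nefl* was absent from replicate 3 as well, and their share of NEU_22 cells (11.3%, interval 5.29 to 22.6, for *Nefl*, and 13.2%, 6.55 to 24.8, for *Nefm*) rested on replicate 2. Without that library the shares were 0% and 3.33%.

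*Ina* and *Crmp1* were found in both classes, though the 6 *Pcp2*-positive cells held 225 of 265 *Ina* and 327 of 390 *Crmp1* UMIs. *Ina* (19:47014698 to 47025327, plus strand), the neurofilament-associated protein internexin, was seen in 6 of 6 *Pcp2*-positive and 20 of 47 *Pcp2*-negative cells, and *Crmp1* (5:37241940 to 37292133, plus strand), a mediator of semaphorin signals in growing axons, in 6 of 6 and 26 of 47. In the *Pcp2*-negative sums *Ina* stood at 174, 235 and 288 CPM in replicates 1 to 3, against 0.890 CPM in P3 astroglial cells, and *Crmp1* at 174, 532 and 365 CPM against 7.14 CPM. In replicate 1, 9 of these *Crmp1* UMIs were in cells with astroglial transcripts, described below, and 1 in the others (66.5 CPM). Without the cells with astroglial transcripts *Ina* was at 466, 273 and 293 CPM in replicates 1 to 3, from 7, 12 and 15 UMIs, so that replicate 1 was highest. Within replicate 2 both were higher in the *Pcp2*-positive sum, *Ina* by a ratio of 5.41 (3.21 to 9.83) and *Crmp1* by 3.47 (2.433 to 5.096). With every cell thinned to 2000 UMIs, which left 36 cells, *Ina* was detected in 47.2% and *Crmp1* in 61.1%, beside 49.1% and 60.4% unthinned. Neither gene had a UMI in any of 124 P3 microglia (median 6223 UMIs, against 2793 in NEU_22), and in endothelial cells the shares were 0.0773% for *Ina* and 3.32% for *Crmp1*. P3 oligodendrocyte precursors had more, with *Ina* at 33.1, 93.3 and 41.9 CPM and *Crmp1* at 55.1, 65.7 and 74.5 CPM in replicates 1, 2 and 3.

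Pan-neuronal genes were detected in both classes, though not all at a similar level. *Tubb3*, the neuron-specific β-tubulin, was detected in 45 of 53 cells (84.9%, interval 72.9 to 92.1), and its *Pcp2*-negative sums were 747, 1423 and 1806 CPM against 1258 CPM in the *Pcp2*-positive sum and 2.55 CPM in astroglial cells. *Stmn2*, a regulator of microtubules in growth cones, was detected in 44 cells and stood at 1008, 2517 and 3786 CPM in *Pcp2*-negative sums and at 3418 CPM in the *Pcp2*-positive sum. Replicate 1 had the lowest value of both genes. Without the cells with astroglial transcripts, described below, it was still lowest but nearer the others. *Tubb3* was then at 1197, 1547 and 1839 CPM and *Stmn2* at 2461, 3298 and 3853 CPM in replicates 1 to 3. Outside NEU_22 both were highest in P3 cluster 20 among the P3 types, with *Stmn2* at 615, 736 and 970 CPM in replicates 1, 2 and 3 and *Tubb3* at 115 CPM over the libraries. *Dcx*, a microtubule protein of migrating neurons, reached 191, 281 and 384 CPM in *Pcp2*-negative sums and 152 CPM in the *Pcp2*-positive sum. The 7 genes of the neuronal RNA-binding protein list summed to 463 CPM in the *Pcp2*-positive sum, against 1485 CPM in the *Pcp2*-negative sum of replicate 2.

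As a description of the cluster, with no test because the clusters were built from these same genes, 306 of 22361 genes (1.37%) were at least 4-fold higher in NEU_22 than in the other P3 cells and above every other P3 cell type in each of the 3 libraries. Of the fixed lists, 11 of 17 microtubule and axon growth genes met this rule, 10 of 21 synaptic vesicle and release genes, 5 of 7 neuronal RNA-binding protein genes and 3 of 5 GABA and glycine transmission genes. The median log2 fold of the *Pcp2*-negative cells over the other P3 cells was 3.61, 3.29, 3.90 and 5.80 for these lists, beside -0.08 over all 22361 genes. With the 47 *Pcp2*-negative cells alone 329 genes (1.47%) met the rule. The sets shared 249 genes, 81.4% of the former and 75.7% of the latter. The 6 *Pcp2*-positive cells alone, deeper and in 1 library, gave 1271 genes (5.68%), among them 16 of the 21 Purkinje list genes (*Pcp2*, which chose the cells, included) and 20 of the 21 synaptic vesicle and release genes.

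The genes with the largest folds also differed by which cells were counted. Over all 53 cells, the 20 genes with the largest fold among those with 50 CPM or more began with *Pcp4*, *Sncb*, *Ina*, *Tubb3*, *Snhg11*, *Syt1* and *Stmn2*, and the *Pcp2*-positive cells held 95.4% of the *Pcp4*, 94.6% of the *Sncb*, 97.2% of the *Fabp3* and 91.0% of the *Cacng2* UMIs. Over the *Pcp2*-negative cells the order began with *Tubb3* (315-fold), *Reln* (249-fold), *Snhg11* (237-fold), *Igfbpl1* (236-fold), *Stmn4* (232-fold), *Sp9* (224-fold) and *Syt1* (219-fold), and 11 of the 20 names were shared. *Reln* and *Npy*, which ranked 2 and 11, came from few cells, as described below, whereas *Igfbpl1* was found in 27 cells and *Sp9* in 20.

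Synaptic vesicle and release genes summed to a higher level in the *Pcp2*-positive cells. Over all 21 list genes the sum was 5595 CPM in the 6 cells against 1782 CPM in the 17 cells of the library, but the shares per cell overlapped, at 0.460 to 0.666% of UMIs in the 6 cells and 0 to 0.821% in the *Pcp2*-negative cells. Within replicate 2, of 1681 genes that passed an expression filter, 333 (19.8%) were at least 2-fold higher and 332 (19.8%) at least 2-fold lower in the *Pcp2*-positive sum after TMM scaling, with no test. Genes could pass this filter through 1 of the sums, so members that passed are not counted as support for a list. *Rab3a*, the vesicle GTPase, was at 1156 CPM against 313 CPM (ratio 3.70, 2.33 to 6.18), and *Syp*, synaptophysin, at 265 CPM against 46.9 CPM from 3 UMIs (ratio 5.65, 1.82 to 28.4). *Sncb*, β-synuclein, was at 886 CPM in the 6 cells against 46.9 CPM from 3 UMIs in the 17 (ratio 18.9, interval 6.34 to 92.5). The counting intervals of *Syt1* (344 against 235 CPM, ratio 1.47, 0.824 to 2.78) and *Snap25* (271 against 203 CPM, ratio 1.33, 0.710 to 2.68) spanned a ratio of 1. All 17 members of the microtubule list passed the filter, and 2 were at least 2-fold higher and 1 at least 2-fold lower, with a median log2 ratio of 0.25 beside -0.07 over all genes that passed.

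Both classes had genes of GABA synthesis and packaging, and the *Pcp2*-positive cells also had a vesicular glutamate transporter gene. *Gad1*, glutamate decarboxylase 1, was detected in 6 of 6 *Pcp2*-positive cells with 24 UMIs in all. *Slc32a1*, the vesicular GABA transporter, was detected in 6 of 6 with 30. *Gad2* was detected in 4 of 6, and was lower than in the 17 *Pcp2*-negative cells of the library (log2 ratio -1.38 after TMM scaling). The 6 cells were deep (median 27354 UMIs, against 2770 in all *Pcp2*-negative cells). With every cell thinned to 2000 UMIs, *Gad1*, *Slc32a1* and *Gad2* were detected in 2, 3 and 0 of the 6. The numbers were 4, 4 and 10 of 30 *Pcp2*-negative cells. Unthinned, *Gad1*, *Gad2* or *Slc32a1* was detected in 27 of 47 *Pcp2*-negative cells (57.4%), against 0 of 124 microglia and 0.696% of endothelial cells. *Slc17a8*, the vesicular glutamate transporter VGLUT3, had 13 UMIs spread over all 6 *Pcp2*-positive cells and 0 in the other 47. *Chat* and *Slc18a3*, 2 of the 4 genes of the acetylcholine list, and *Slc6a5*, the glycine transporter of glycinergic neurons, had 0 UMIs in NEU_22. The other 2 genes of that list, *Slc5a7* and *Ache*, were detected. The list summed to 48.5 CPM in NEU_22, against 12.5 CPM in pericyte cluster 6, the highest other P3 type.

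The largest positive ratios within replicate 2, among genes with a UMI in all 6 *Pcp2*-positive cells and 50 CPM or more, included genes outside the fixed lists. *Cck*, a neuropeptide, had 237 UMIs in the 6 cells, *Igf1*, a growth factor, 180, *Plcb4*, the phospholipase C that acts below metabotropic glutamate receptors in Purkinje cells, 114, *Itpka*, an IP3 kinase, 88, and *Nxph4*, a neurexophilin, 70. All 5 had 0 UMIs in the 17 *Pcp2*-negative cells. Of 3737 genes with 10 or more UMIs in both sums together, 106 (2.84%) were higher as CPM in each of the 6 cells than in every one of the 17. A gene could reach 10 UMIs through the 6 deeper cells alone, so members of a list are not counted among these.

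**Figure D2:**
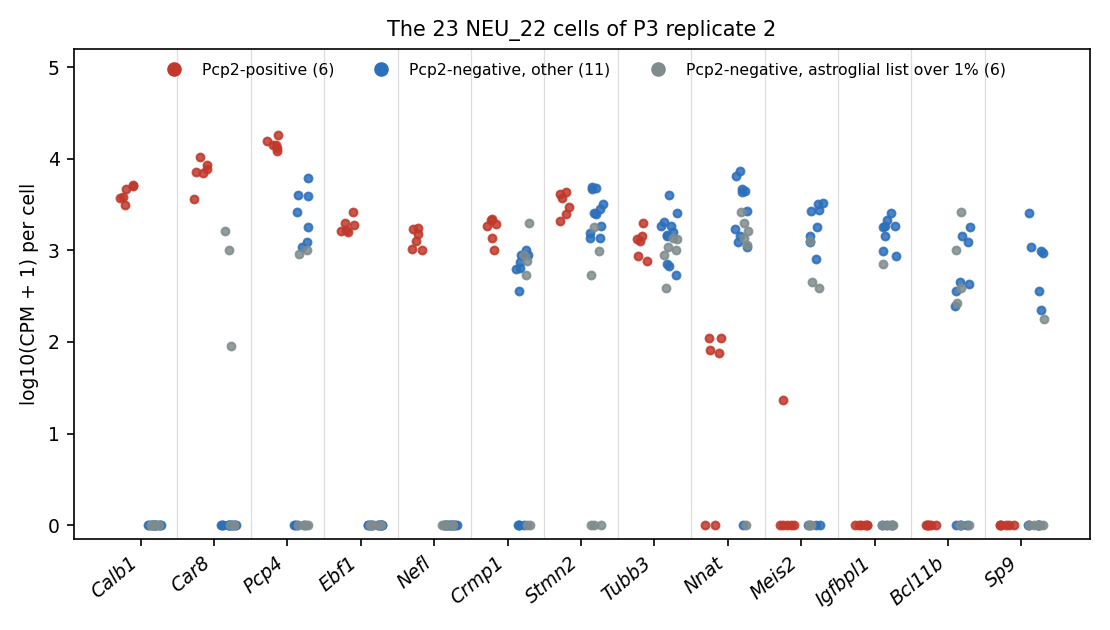
Expression per cell, log10(CPM + 1), of 13 genes in the 23 NEU_22 cells of P3 replicate 2, with 1 point per cell, spread sideways at random, red for Pcp2-positive cells, grey for cells with over 1% astroglial UMIs and blue for the others. Calb1, Ebf1 and Nefl are found in the 6 red cells and in 0 of the 17 others, and Igfbpl1, Bcl11b and Sp9 are at 0 in the red cells. Stmn2 and Tubb3 overlap between red and blue cells, and Stmn2 is at 0 in some grey cells.

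Genes of the young telencephalon were low or absent in the *Pcp2*-positive cells. *Igfbpl1*, a marker of newborn neurons, had 51 UMIs in 9 of the 17 *Pcp2*-negative cells and 0 in the 6 deeper cells, at least 47.1-fold lower. *Bcl11b*, the transcription factor CTIP2 of striatal projection neurons, had 30 UMIs in 11 cells and 0 in the 6, at least 27.7-fold lower. *Sp9*, a factor of subpallial progenitors and striatopallidal neurons, had 26 UMIs and 0, and *Six3* 21 UMIs and 0. *Meis2* had 75 UMIs in the 17 cells and 1 in the 6, a ratio of 208 with an interval of 36.2 to 8320. *Nnat*, an imprinted proteolipid of developing neurons, was at 2783 CPM in the 17 cells against 62.0 CPM in the 6 (ratio 44.9, 24.5 to 91.5), and *Sox11*, a factor of immature neurons, at 1251 against 79.0 CPM (ratio 15.8, 8.91 to 30.3).

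Summed over all members of each list, the 9 immature neuron genes stood at 705 CPM in the 6 cells against 6958 CPM in the 17, the 15 striatal projection neuron genes at 95.9 against 2439 CPM and the 16 subpallial genes at 5.64 CPM, from 1 UMI, against 1001 CPM.

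Among the 47 *Pcp2*-negative cells the subpallial genes were found in all 3 libraries. *Meis2* was detected in 36 cells, *Igfbpl1* in 27, *Bcl11b* in 25 and *Sp9* in 20. At least 1 of these 4 was detected in 13 of 14 cells of replicate 1, 14 of 17 of replicate 2 and 14 of 16 of replicate 3, and all 4 in 13 cells. *Meis2* is also expressed by astroglial cells (342 CPM, 77.5% of cells), and it stood at 1494, 1173 and 2075 CPM in the *Pcp2*-negative sums. *Sp9* was at 243, 407 and 211 CPM against 0.41 CPM in astroglial cells, and *Igfbpl1* at 452, 797 and 942 CPM against 1.85 CPM.

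Markers of mature striatal neurons were sparse. *Drd1* had 2 UMIs and *Drd2* 2 UMIs in the 47 cells, *Ppp1r1b* (DARPP-32) 3, *Tac1* and *Pdyn* 0 and *Penk* 16. Genes of interneuron precursors and neuroblasts were counted from few UMIs per library. *Dlx5* was at 17.4, 141 and 269 CPM, *Dlx2* at 34.8, 109 and 404 CPM and *Dlx6* at 52.1, 46.9 and 96.1 CPM in replicates 1, 2 and 3, and the sum of the whole subpallial list was 2328, 1001 and 1653 CPM. The replicate 1 sum came mostly from 1 cell of 909 UMIs, described below, which had 102 UMIs of *Sst*, *Npy* and *Nos1*. Of the 6 genes *Dlx1*, *Dlx2*, *Dlx5*, *Dlx6*, *Sp8* and *Sp9*, at least 1 was detected in 34 of 47 cells, against 0 of the 6 *Pcp2*-positive cells, 1 of 124 microglia and 8.07% of astroglial cells. *Sp8* had 8 UMIs, all in replicate 3. At depths of 57552, 63959 and 52040 UMIs per sum, 1 UMI is worth 15.6 to 19.2 CPM.

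A few *Pcp2*-negative cells had marker sets of their own and were singled out after their values were seen. In 3 cells, 2 in replicate 2 and 1 in replicate 3, *Reln*, the extracellular guidance protein of Cajal-Retzius cells, had 59, 10 and 23 UMIs and *Ndnf*, a secreted neurotrophic factor, had 48, 8 and 24. These 3 cells held 92 of 94 *Reln* UMIs and every *Slc17a6* (VGLUT2) UMI of the cluster, 2, 1 and 2, and they had 0 UMIs of *Meis2*, *Bcl11b*, *Sp9*, *Igfbpl1*, *Gad1*, *Gad2* and *Slc32a1*. *Trp73*, a transcription factor of Cajal-Retzius cells, had 3, 0 and 1 UMIs in them. *Ndnf* was found elsewhere too, since the 6 *Pcp2*-positive cells had 55 UMIs of it. A cell of replicate 1 with 909 UMIs had 43 UMIs of *Sst* and 57 of *Npy*, the neuropeptides of a striatal interneuron class, together with 2 of *Nos1*, and it held all *Sst* and 57 of 60 *Npy* UMIs of the cluster. This cell is one of the 13 with astroglial transcripts described below (1.65% of UMIs), and it had 0 UMIs of *Tubb3* and *Lhx6* and 1 of *Stmn2*. A cell of replicate 3 with 6842 UMIs had 19 UMIs of *Th*, tyrosine hydroxylase, with 5 of *Gad1* and 6 of *Slc32a1*.

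**Figure D3:**
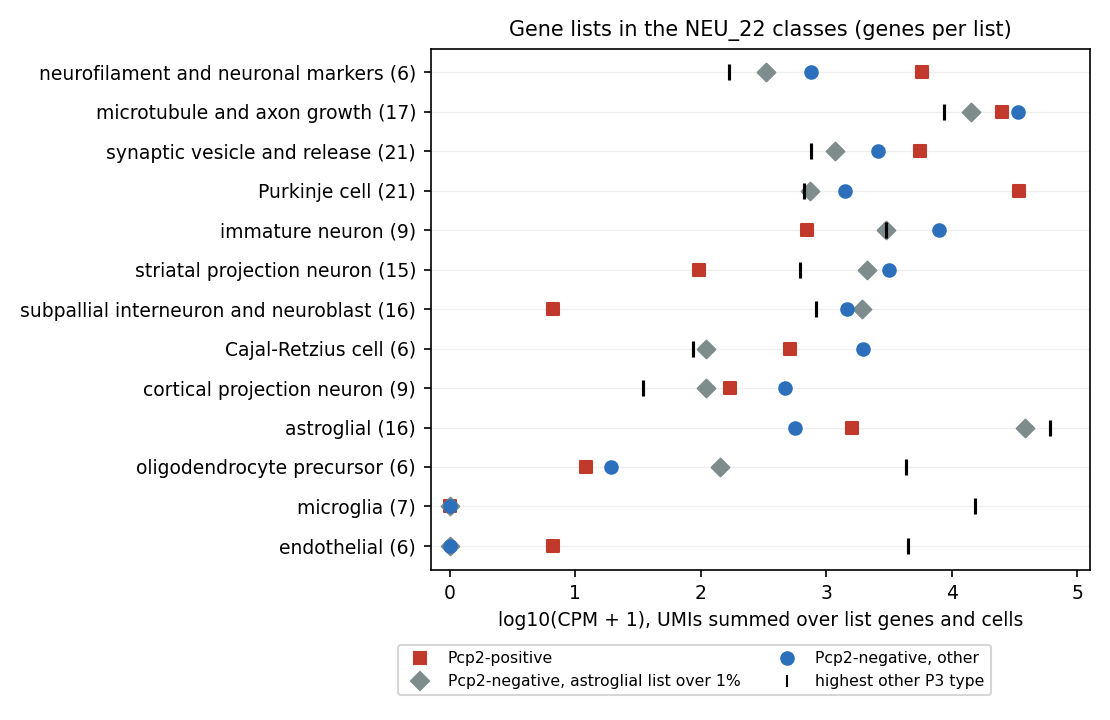
Summed expression of 13 gene lists, log10(CPM + 1), in the 6 Pcp2-positive cells (red squares), the 13 Pcp2-negative cells with over 1% astroglial UMIs (grey diamonds), the 34 other Pcp2-negative cells (blue circles) and the P3 cell type with the highest value outside NEU_22 (black ticks). The red squares are highest for the Purkinje list (34367 CPM with Pcp2, which chose the cells, and 31462 CPM without it) and the neurofilament and marker list, the blue circles for the immature neuron (7855 CPM) and striatal (3160 CPM) lists, and the grey diamonds come near the black tick for the astroglial list.

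The cluster also held cells with astroglial transcripts. The 16 genes of the astroglial list took 1.65 to 6.52% of UMIs in 13 *Pcp2*-negative cells and at most 0.398% in the other 40 cells, and no cell lay between. A cut at 1%, set after this gap was seen, gives 6 such cells in replicate 1, 6 in replicate 2 and 1 in replicate 3. P3 astroglial cells had a median of 5.98%, and 55 of 124 microglia and 503 of 1294 endothelial cells were also above 1%. *Fabp7*, the radial glial and astrocyte fatty acid binding protein, *Apoe* and *Mt3* were detected in 13 of 13 of these cells, and *Fabp7* was at 13322 CPM in their sum against 23180 CPM in astroglial cells and 109 CPM in the 34 other *Pcp2*-negative cells.

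These 13 cells carried fewer neuronal transcripts than the rest. The 17 microtubule and axon growth genes took 0.20 to 2.16% of their UMIs (median 0.99%), against a median of 3.48% in the 34 others, and *Tubb3* was detected in 8 of 13 against 31 of 34. Their median depth was 2003 UMIs against 2787. Of the 53 cells, 2 lay more than 1 unit from the cluster's median on the deposited UMAP, and both were among the 13. In the plot of neuronal against astroglial shares the 13 cells lie apart from the other 40. No doublet caller was run here, and doublets and free RNA were not tested as sources.

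**Figure D4:**
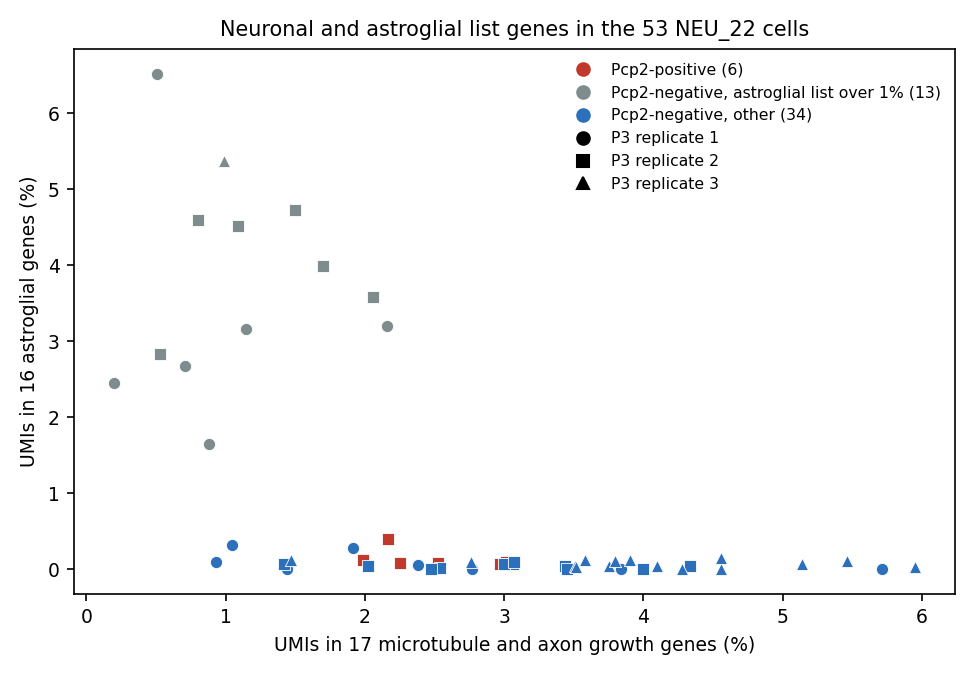
Share of UMIs in 16 astroglial genes (y axis, %) against the share in 17 microtubule and axon growth genes (x axis, %) for each of the 53 NEU_22 cells, coloured by class and shaped by library. The 13 grey cells lie between 1.65 and 6.52% on the y axis, and all other cells, the 6 Pcp2-positive ones included, lie at or below 0.398%.

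The counts above were also taken without the 13 cells. Within replicate 2, 550 of 1342 genes were at least 2-fold apart between the classes without them, against 665 of 1681 with them. The second number of each pair is the genes that passed the filter. Of the 550, 339 were higher in the *Pcp2*-positive sum. The number of genes above every other P3 cell type was 337 (1.51%) for the 34 other *Pcp2*-negative cells against 329 for all 47. The astroglial list summed to 1619 CPM in the *Pcp2*-positive cells, against 12461 CPM in the 17 *Pcp2*-negative cells of the library, of which 6 were astroglial-rich, and 563 CPM in the 34 other *Pcp2*-negative cells. Of the 287 astroglial UMIs in the *Pcp2*-positive cells 178 were in 1 cell, and the other 5 cells summed to 822 CPM.

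*Atp1b2*, the gene of the antigen used for enrichment, was low in most of the cluster. It had 0, 1 and 1 UMIs in the 34 other *Pcp2*-negative cells of replicates 1, 2 and 3 (18.2 CPM pooled), 10 UMIs in the 6 *Pcp2*-positive cells (56.4 CPM) and 11 UMIs in the 13 astroglial-rich cells (173 CPM). P3 astroglial cells had 327 to 391.6 CPM per library, endothelial cells 51.5 to 61.2 CPM and microglia 3.04 to 48.3 CPM. *Atp1b1*, the β1 subunit gene of the same pump, was 6.403-fold (3.88 to 11.4) higher in the *Pcp2*-positive sum than in the *Pcp2*-negative sum of replicate 2.

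Lists of other tissues and cell types were at or near 0 in the cluster. All 7 microglial genes were at 0 UMIs, and of the 6 endothelial genes 1 was detected. The hindbrain and spinal list of *Hox* and *Phox2* genes had 0 UMIs in all 12 members, in both classes. The haemoglobin genes had 0 UMIs in the *Pcp2*-positive sum and 11.5 CPM in the *Pcp2*-negative sum. Immediate early genes, which rise with tissue dissociation, were at 152 CPM in the *Pcp2*-positive sum, and at 2554, 547 and 1076 CPM in the *Pcp2*-negative sums, against 9962 CPM in microglia. In replicate 1, 114 of 147 of these UMIs were in 1 astroglial-rich cell, and the sum without it was 786 CPM.

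The median NEU_22 cell was shallower than the median astroglial cell in each library. Median UMIs were 1917.5, 4065 and 2756.5 against 9100.5, 7322 and 5021 in P3 replicates 1, 2 and 3, a mean difference of -4235 ± 2601 (SD, n = 3 libraries). The exact sign-flip permutation test over libraries, two-sided, gave p = 0.25, which is the smallest p that 3 libraries allow. Median genes per cell were lower by 1276 on average and the mitochondrial share was higher by 1.01 percentage points, each in 3 of 3 libraries and each with the same p. As means over cells the order in replicate 2 was the opposite, with 10489 UMIs per NEU_22 cell against 8610 per astroglial cell, while replicates 1 and 3 had 4111 against 10022 and 3253 against 5564 (exact sign-flip p = 0.5, n = 3 libraries).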

How the data were processed

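UMIs (counts) were deposited for 32285 genes and 16690 barcodes of 6 libraries. The submitters' processing notes name mm10, Cell Ranger and Seurat 3.1.1. The authors removed barcodes with few genes or a high mitochondrial share before clustering, so that annotated cells had at least 501 genes and at most 9.996% mitochondrial UMIs. Cluster names and UMAP coordinates (a score with no unit) were deposited with the cells. No doublet caller was run here.

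UMIs were summed per library and class, and CPM are UMIs scaled to 1e+06 per sum. Other P3 cells were grouped by the authors' cluster prefix, and a type counted in a library with at least 10 cells. Fold changes over other P3 cells used a pseudocount of 1 CPM. *Pcp2*-positive cells had at least 1 *Pcp2* UMI. The planned edgeR quasi-likelihood test with library as a block left no residual degrees of freedom, because the *Pcp2*-positive class existed in 1 library, so log2 ratios within that library (edgeR 4.0.16, R 4.3.3, TMM, filterByExpr, pseudocount 1 CPM) were given with no test. Ratios of 2 sums have exact 95% counting intervals, shares have Wilson intervals, and both cover counting error only. Thinning drew 2000 UMIs per cell.

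Named genes were those of 31 lists, the 20 of largest fold with at least 50 CPM and a UMI in each library, and, by a rule set after seeing the data, the 15 largest ratios each way within replicate 2 (a UMI in all 6 *Pcp2*-positive cells, or in at least 6 of the 17 others). Members and lists were chosen with earlier results of these data known. Scripts were tested on simulated data. Some genes are not reported here.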

Additional observations from a re-analysis of the deposited data

How the results depend on the processing

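No paired analysis was possible because the *Pcp2*-positive class was present in replicate 2 alone; for the same reason the DESeq2 fit with the library block and the comparison without replicate 2 could not be fitted. With no replicate block, where the lone *Pcp2*-positive sum is assumed to vary like the *Pcp2*-negative sums, edgeR's quasi-likelihood test called 198 genes and, added after seeing the data, DESeq2's Wald test called 68; neither has a spread for the *Pcp2*-positive class, and both treat 2 sums of replicate 2 as independent. The 665 of 1681 genes at least 2-fold apart within replicate 2 became 7408 of 12826 with a filter of 1 UMI. They were 263 of 930 with 10 UMIs in 3 or more sums and 223 of 469 after thinning to 2000 UMIs (36 cells). The second number of each pair is the genes that passed the filter. Cuts of 2 or 3 *Pcp2* UMIs gave the same 665. Scaling moved the median log2 ratio of all genes from -0.07 (TMM) to 0 (RLE) and -0.21 (none), and the share of higher genes among those 2-fold apart from 50.1% to 53.2% and 43.3%.

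The 306 genes above every other P3 type became 192 with a pseudocount of 10 CPM, 484 at 2-fold, 552 against astroglial cells alone, and 460 to 531 without 1 library, where fewer libraries had to meet the rule. Without 1 library the share of cells with a UMI ranged from 0 to 16.2% for *Nefl* and from 3.33 to 17.9% for *Nefm*. Averaged over libraries, the differences in UMIs, genes and mitochondrial share kept their sign under the alternatives run, but with means over cells the difference in UMIs within replicate 2 was positive (1879).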

Other observations

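Some cells outside NEU_22 had several neuronal genes. Of 10 neuronal genes chosen after the data were seen (*Tubb3*, *Stmn2*, *Snap25*, *Syt1*, *Elavl3*, *Dcx*, *Gad1*, *Gad2*, *Stmn3* and *Ina*), 5 or more were detected in 38 of 53 NEU_22 cells (71.7%), in 6 of 94 P3 oligodendrocyte precursors (6.38%), in 4 of 90 cells of the unidentified cluster 20 (4.44%), in 3 of 1086 glial progenitors, in 1 of 628 cells of pericyte cluster 6 and in 1 of 7692 astroglial cells. Among barcodes that the authors' filter rejected, 2 of 772 at P3 and 2 of 1545 at 3m met this count. Cluster 20 cells had a median of 690 genes, and *Stmn2* was at 742 CPM in them.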
